A study of Homo sapiens with 15 samples.

Results

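Complexes II to V of the respiratory chain were followed here through 38 nuclear-encoded subunit mRNAs, 4 of complex II, 9 of complex III, 10 of complex IV and 15 of complex V, the ATP synthase. The members were chosen as a list of genes by a rule that used no measured value, though earlier results of these data were known. Each was found on the arrays through the RefSeq accession of its probes. They were 38 of the 26826 features tested (genes, or unnamed transcripts). All 38 had a probe that was well above background on all 15 arrays, so no member was lost to the filter on dim probes. The members were read by 52 probes, 9 of them by more than 1, and the probe with the highest mean stood for the gene.

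The study exposed A2058, an established human malignant melanoma line, for 8 hours to a plant-derived compound or to a biguanide, and measured total RNA on single-colour Agilent arrays. Each of the 5 groups held 3 arrays, from independent experiments according to the series description. The DMSO group received the solvent, and the NP group received 3 µM NP in that solvent. The W group received water, the MET group 5 mM metformin and the PHEN group 50 µM phenformin, both dissolved in water. All groups grew in serum-supplemented EMEM. The labels write NP, the series title spells out neopetasin, and the study's methods describe petasin at the same dose and time, which the arrays cannot settle, so the label NP is kept. The arrays analysed here covered 1 line, 1 time point and 1 dose per compound. DMSO and NP arrays lay on slides 1 and 2, and W, MET and PHEN arrays lay on slides 3 and 4.

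The respiratory chain passes electrons from NADH and succinate to oxygen. Complex I takes them from NADH, and complex II, succinate dehydrogenase, takes them from succinate and is also an enzyme of the citric acid cycle. Complex III hands electrons from ubiquinol to cytochrome c, complex IV (cytochrome c oxidase) gives them to oxygen, and complex V uses the proton gradient to make ATP. Metformin and phenformin are known inhibitors of complex I, and the study set NP beside them. The question here was whether mRNAs of complexes II to V differed between treated and control cells. Subunits encoded in mitochondrial DNA were not analysed here, since no probe matched them by accession.

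Levels are log2 of the scanner's background-subtracted signal minus the array's own 75th percentile, so a difference of 1 is a doubling relative to that percentile. In bulk RNA, fewer cells of a type and less RNA per cell cannot be told apart. Of 9 melanocyte-lineage markers, 8 were well above background on all 15 arrays, among them SOX10, MITF, PMEL and S100B, and TYR, the tyrosinase gene, was so on 13. Of these 8, MLANA ranged from -2.60 to 0.42 and TYRP1 from -2.65 to -0.90, beside -2.38 to -1.54 for the endothelial PECAM1. DCT, the next lowest of the 8, ranged from 2.52 to 3.15. The epithelial genes EPCAM, CDH1 and KRT5 were above background on no array. Of the other-cell markers, COL3A1 was above background on no array either, but 3 of 6 fibroblast, 1 of 4 epithelial, 1 of 3 measured leukocyte and both endothelial markers were above it on all 15 arrays. Between 25804 and 32056 probes were well above background on the DMSO and NP arrays and between 31408 and 45044 on the other arrays, with W replicate 1 (45044) and MET replicate 1 (44451) the highest.

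RefSeq promoter windows (GRCh38.p14, 250 bases before to 50 after the annotated start) were at hand for 30 of the 38 members. They are given first because the members are often described as one co-regulated family, and the letters show what their start regions share. NRF1 is a transcription factor known to bind promoters of respiratory chain genes, and so are ETS-family factors of the GABP type. The letters GCATGCGC (NRF1), on either strand, stood in 8 of the 30 windows (26.7%), against 3.27% of all 27305 promoter windows. CCGGAAG (ETS), on either strand, stood in 14 of 30 (46.7%), against 10.7% of all windows. Both stood together in 6 (SDHB, SDHD, COX5B, COX6A1, ATP5ME and ATP5PF), that is 20% against 0.685%, and 14 windows held neither. The letters of YY1 (ATGGCGGC) were in 3, those of the ERR family (AAGGTCA) in 4, and those of the ATF4-type CARE element (TGATGNAA) in 0 of the 30 windows, against 3.21%, 3.97% and 3.67% of all windows. A match is a run of letters and not a shown binding site.

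One window per complex is printed to show how these letters lie, 140 bases upstream of the start, 5′ to 3′ on the gene's strand, with NRF1 and ETS letters in capitals. SDHD is at chr11:112086733-112086872 on the plus strand, with 2 overlapping NRF1 matches and 1 ETS match. UQCRH is at chr1:46303558-46303697, plus strand, with 1 ETS match. COX5B is at chr2:97645922-97646061, plus strand, with 1 match of each kind and a further ETS match that runs past the end of the window and is left in lower case. ATP5PF is at chr21:25735055-25735194 on the minus strand, with 1 match of each kind.
SDHD: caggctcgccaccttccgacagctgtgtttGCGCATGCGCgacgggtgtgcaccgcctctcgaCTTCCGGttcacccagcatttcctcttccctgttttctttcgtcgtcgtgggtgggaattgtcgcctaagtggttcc
UQCRH: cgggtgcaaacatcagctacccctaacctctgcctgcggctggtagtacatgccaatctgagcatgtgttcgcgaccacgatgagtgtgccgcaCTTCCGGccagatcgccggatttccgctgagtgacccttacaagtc
COX5B: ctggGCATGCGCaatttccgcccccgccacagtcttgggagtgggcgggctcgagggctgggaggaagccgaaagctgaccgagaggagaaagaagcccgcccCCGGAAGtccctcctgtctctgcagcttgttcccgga
ATP5PF: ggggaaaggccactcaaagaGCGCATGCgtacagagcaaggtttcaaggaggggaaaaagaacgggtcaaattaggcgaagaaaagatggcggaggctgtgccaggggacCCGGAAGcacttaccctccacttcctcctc

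None of the 38 members passed the threshold in any of the 3 comparisons, set at a fold change of at least 1.5 and a Benjamini-Hochberg adjusted p of at most 0.05 in limma. At that threshold 0.0373% of all features were called for NP vs DMSO, 0% for MET vs W and 0.0261% for PHEN vs W. None reached an unadjusted limma p of 0.05 either, in any comparison. Of all features, 2.8% were higher and 1.88% lower at that p for NP vs DMSO, 1.38% and 1.07% for MET vs W, and 0.816% and 1.54% for PHEN vs W. In either direction that was 4.69%, 2.46% and 2.35%. A list of 38 would hold few such features at these shares, so the count of 0 says little. With the replicate numbers blocked within each set of slides it was 0 too, where 11.5%, 9.29% and 7.1% of all features reached that p. The study's methods named another test, a paired t-test with no adjustment, and the methods' t-test put 4 members below DMSO under NP and 1 below W under MET at p of at most 0.05, each with a difference far under 1.5-fold. These were SDHB, UQCR10, ATP5F1B and ATP5PO under NP and UQCRFS1 under MET, and by that test 0 members were higher in any comparison and 0 lower under PHEN. Of all features, the same test put 2.9% higher and 4.66% lower for NP vs DMSO, 5.94% and 5.76% for MET vs W, and 2.63% and 2.59% for PHEN vs W. The methods name DMSO as the control of all 3 compounds, whereas the series description sets metformin and phenformin against water, and water was the control used here.

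The median log2 fold change over the members was -0.011 for NP vs DMSO, -0.00069 for MET vs W and 0.0050 for PHEN vs W, beside -0.014, 0.0044 and -0.034 over all features. The members split almost evenly in sign, with 17 above and 21 below 0 for NP, 19 and 19 for MET, and 20 and 18 for PHEN. Their differences were small. Within 0.1 log2 units of 0 lay 32 members for NP, 34 for MET and 37 for PHEN, which is 84.2%, 89.5% and 97.4% of the list, against 45.8%, 44% and 50% of all features. Dim features scatter more, and among the 3503 features at least as bright on average as the dimmest member (ATP5F1C) the shares were 73.2%, 65.9% and 77%. That cutoff is a floor and does not match the members' brightness. Of the 37 complex I subunits 91.9%, 83.8% and 94.6% lay within 0.1, so small differences were not particular to the members.

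**Figure D1:**
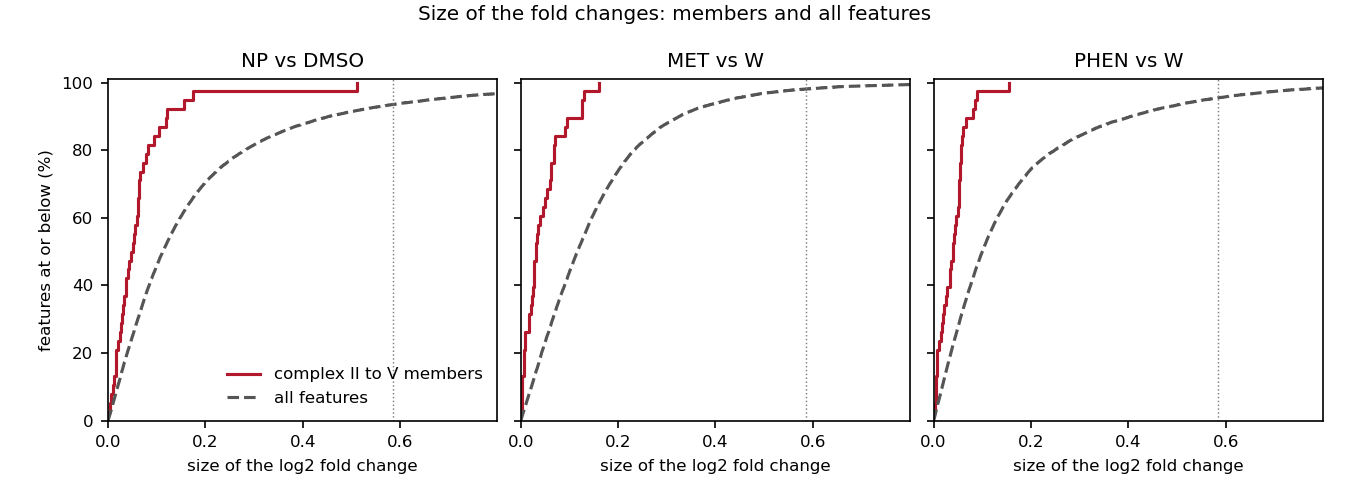
Share of features (y axis, percent) whose log2 fold change is no larger in size than the value on the x axis, for the 38 members (solid) and all 26826 features (dashed), in NP vs DMSO, MET vs W and PHEN vs W. The dotted line marks a 1.5-fold difference. The members' curve climbs first in each panel, and the step at 0.51 for NP vs DMSO is ATP5PB alone.

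Complex II holds the catalytic SDHA, which carries the flavin, the iron-sulfur subunit SDHB, and the membrane anchors SDHC and SDHD. SDHA read 6.56, 6.42 and 6.51 with DMSO (replicates 1, 2 and 3) and 6.50, 6.43 and 6.61 with NP. It read 6.49, 6.71 and 6.51 with W, 6.65, 6.60 and 6.46 with MET, and 6.63, 6.62 and 6.35 with PHEN. The groups overlapped in each comparison, and the log2 fold changes of SDHA were 0.016 for NP, 0.0027 for MET and -0.036 for PHEN, each with an SE of 0.11. For SDHB they were -0.053, -0.0032 and 0.021, each with an SE of 0.12. SDHB was lower with NP than with DMSO in all 3 pairs, 5.45, 5.48 and 5.56 against 5.52, 5.51 and 5.62, gaps smaller than the range within either group. SDHC had 0.025, -0.028 and -0.061 (SE 0.12), and SDHD had -0.033, -0.16 and -0.081 (SE 0.24).

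SDHD showed the widest scatter of the complex. It read 4.63, 4.58 and 4.04 with DMSO and 4.63, 4.60 and 3.92 with NP, so replicate 3 lay low in both groups. With W it read 3.46, 4.14 and 4.07, with MET 3.45, 3.81 and 3.92, and with PHEN 3.68, 3.89 and 3.85, and here replicate 1 was the lowest of each group. MET was below W in all 3 pairs for SDHD, and the limma interval of that difference ran from -0.69 to 0.37. Without replicate 2 the difference of -0.16 was -0.077. SDHD and UQCRFS1 were the 2 members lower in all 3 pairs of MET vs W.

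Complex III is built on the core proteins UQCRC1 and UQCRC2, cytochrome c1 (CYC1) and the Rieske iron-sulfur protein UQCRFS1, with UQCRB, UQCRQ, UQCRH, UQCR10 and UQCR11 as small subunits. CYC1 was higher with treatment in all 3 pairs of all 3 comparisons. It read 5.17, 5.44 and 4.98 with DMSO and 5.26, 5.49 and 5.32 with NP. It read 5.97, 6.03 and 5.84 with W, 6.05, 6.12 and 6.05 with MET, and 6.04, 6.03 and 5.93 with PHEN. DMSO and NP values overlapped, MET lay above W on every array, and PHEN values fell within or just above the range of W. The log2 fold changes of CYC1 were 0.16 for NP, 0.13 for MET and 0.05 for PHEN (SE 0.10 each), with limma adjusted p of 1 in each. Without replicate 3, whose pair had the widest gap, the value for NP was 0.067. MET and PHEN share the W arrays, so their differences are not separate evidence.

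UQCRC1 had the highest log2 fold change of all members for both biguanides, though neither passed the test. It read 5.62, 5.74 and 5.43 with W, 5.67, 5.76 and 5.75 with MET, and 5.72, 5.82 and 5.72 with PHEN, and it was higher in all 3 pairs of both. W replicate 3 was the low array, and the other W values lay within the range of the treated ones or close to it. The log2 fold changes of UQCRC1 were 0.13 (MET) and 0.15 (PHEN), with an SE of 0.11, and without replicate 3 they were 0.037 and 0.089. With NP it was -0.06 (SE 0.11), from 5.41, 5.22 and 5.49 with DMSO and 5.30, 5.31 and 5.34 with NP. UQCRFS1 had -0.06 in each of the 3 comparisons (SE 0.10) and was the lowest member of complex III in each. The other 6 members of the complex had differences between -0.05 and 0.06 in all comparisons.

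Complex IV was represented by COX4I1, COX5A, COX5B, COX6A1, COX6B1, COX6C, COX7A2, COX7B, COX7C and COX8A, the ubiquitous nuclear-encoded subunits that surround the mitochondrially encoded core. COX4I1, which joins the core early in assembly, read 6.61, 6.64 and 6.72 with DMSO and 6.59, 6.64 and 6.81 with NP. It read 6.87, 7.17 and 7.02 with W, 7.10, 7.19 and 7.04 with MET, and 7.10, 7.13 and 6.97 with PHEN. The groups overlapped, and the log2 fold changes of COX4I1 were 0.03, 0.09 and 0.05 (SE 0.10). COX5A had the largest difference of the complex for NP, 0.12 (SE 0.13), higher in all 3 pairs, with 7.24, 7.36 and 7.53 under DMSO and 7.47, 7.37 and 7.65 under NP, and without replicate 1 it had 0.064. For MET and PHEN the same gene was the lowest of the complex, at -0.06 and -0.05. COX7B was the lowest for NP, at -0.08 (SE 0.16), COX4I1 the highest for MET, and COX6B1 the highest for PHEN, at 0.06 (SE 0.15), above W in all 3 pairs. COX6A1, COX7C and COX8A differed by at most 0.05, on rounding, in each comparison.

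Among complexes II to V, complex V was the one whose members lay mostly below 0 for NP, 12 of 15. Its median was -0.063, beside -0.0085, 0.013 and 0.013 for complexes II, III and IV. The lean was not particular to it. Below 0 for NP also lay 23 of 37 complex I subunits, 54 of 74 mitochondrial ribosomal proteins and 14437 of all 26826 features. None of the 15 members of complex V passed the test. Without replicate 1 the median of complex V for NP was -0.029, and without replicate 2 or 3 it was -0.060 or -0.045. With MET and PHEN the medians of complex V were -0.0060 and 0.0044. The F1 head consists of ATP5F1A and ATP5F1B, the latter carrying the catalytic sites, on the stalk ATP5F1C with ATP5F1D and ATP5F1E. ATP5F1B read 6.69, 6.59 and 6.38 with DMSO and 6.56, 6.49 and 6.30 with NP, lower in each pair while the ranges overlapped. It read 6.87, 7.02 and 6.72 with W, 6.93, 7.09 and 6.97 with MET, and 6.98, 7.01 and 6.88 with PHEN. Its log2 fold changes were -0.10 for NP, 0.13 for MET and 0.09 for PHEN (SE 0.09), and ATP5F1B was the highest member of the complex for both biguanides. Without replicate 3 its value for MET was 0.063. ATP5F1D followed it, lower in all 3 pairs with NP (-0.07, SE 0.09) and higher in all 3 with MET (0.09).

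Subunit c, which forms the rotating ring in the membrane, is encoded by 3 genes that give one mature protein. ATP5MC1 was the lowest member for NP, at -0.18 (SE 0.15, limma adjusted p of 1), with 5.99, 5.76 and 6.33 under DMSO and 5.74, 5.75 and 6.05 under NP. The pair differences had one sign, but the 2 groups overlapped between 5.76 and 6.05. ATP5MC2 had -0.063 and ATP5MC3 -0.0054 for NP (SE 0.11 each). With MET the 3 genes had -0.0060, -0.050 and -0.027, and with PHEN -0.039, -0.016 and -0.011, so no gene of subunit c stood out there. The peripheral stalk members ATP5PD, ATP5PF and ATP5PO had 0.082, -0.040 and -0.063 for NP, and the small subunits ATP5ME, ATP5MF and ATP5MG had -0.056, -0.065 and -0.021.

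ATP5PB, subunit b of the peripheral stalk, had the largest difference of all members, and that difference rested on 1 array. It read 4.98, 6.49 and 6.16 with DMSO and 6.52, 6.50 and 6.14 with NP. On the 9 other arrays it lay between 6.25 and 6.63, so DMSO replicate 1 was the single low value. The log2 fold change for NP was 0.51 (SE 0.27, limma adjusted p of 1), and without replicate 1 it was -0.0016 (SE 0.17). Only 1 probe reads ATP5PB, and a fit on the normalized values deposited beside the scanner files gave 0.50.

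**Figure D2:**
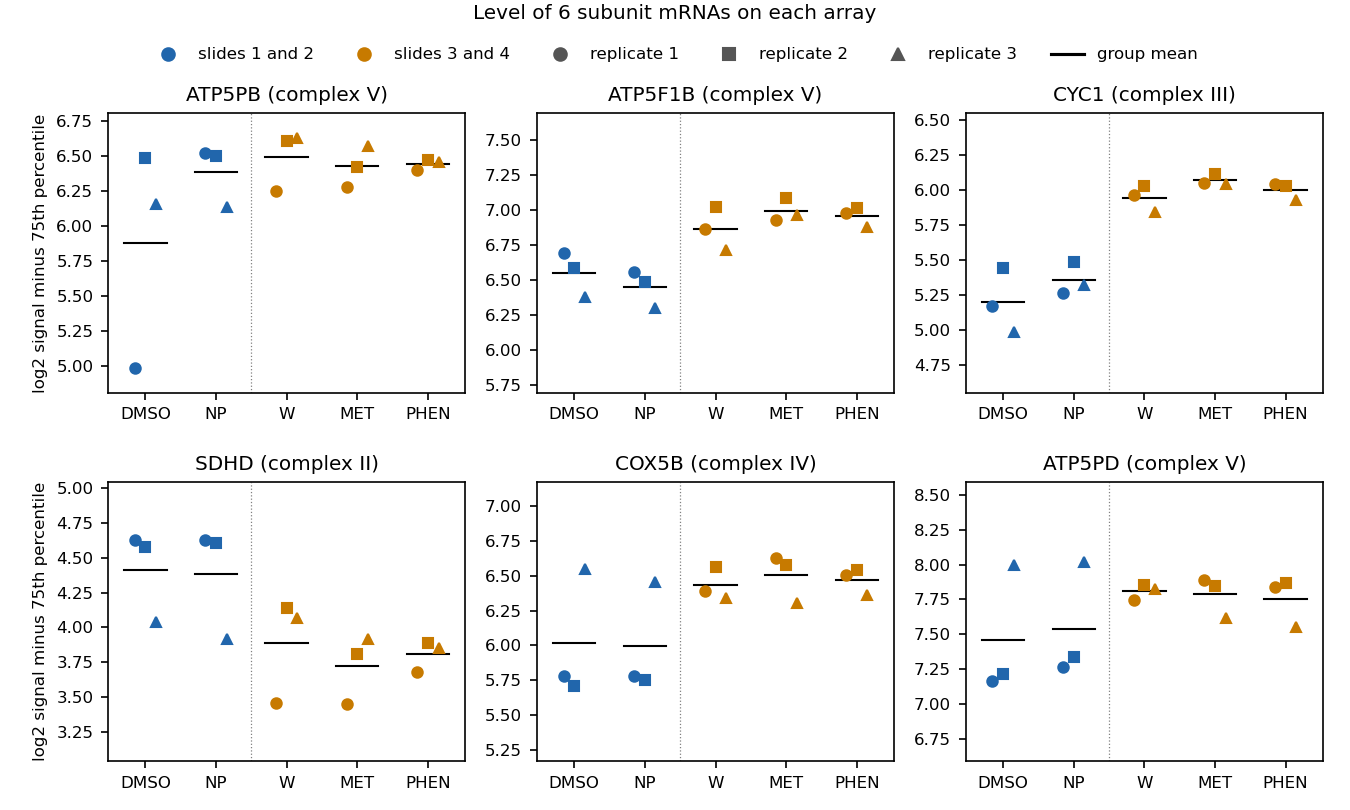
Level of 6 members on each of the 15 arrays (log2 signal minus the array's 75th percentile, y axis), by group, with the replicate as the symbol, the set of slides as the colour and the group mean as a bar. Each panel spans 2 log2 units. ATP5PB has 1 low DMSO array at 4.98, SDHD, COX5B and ATP5PD show replicate 3 apart from replicates 1 and 2 in DMSO and NP alike, and all DMSO and NP values of CYC1 and ATP5F1B lie below those of the other groups.

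**Figure D3:**
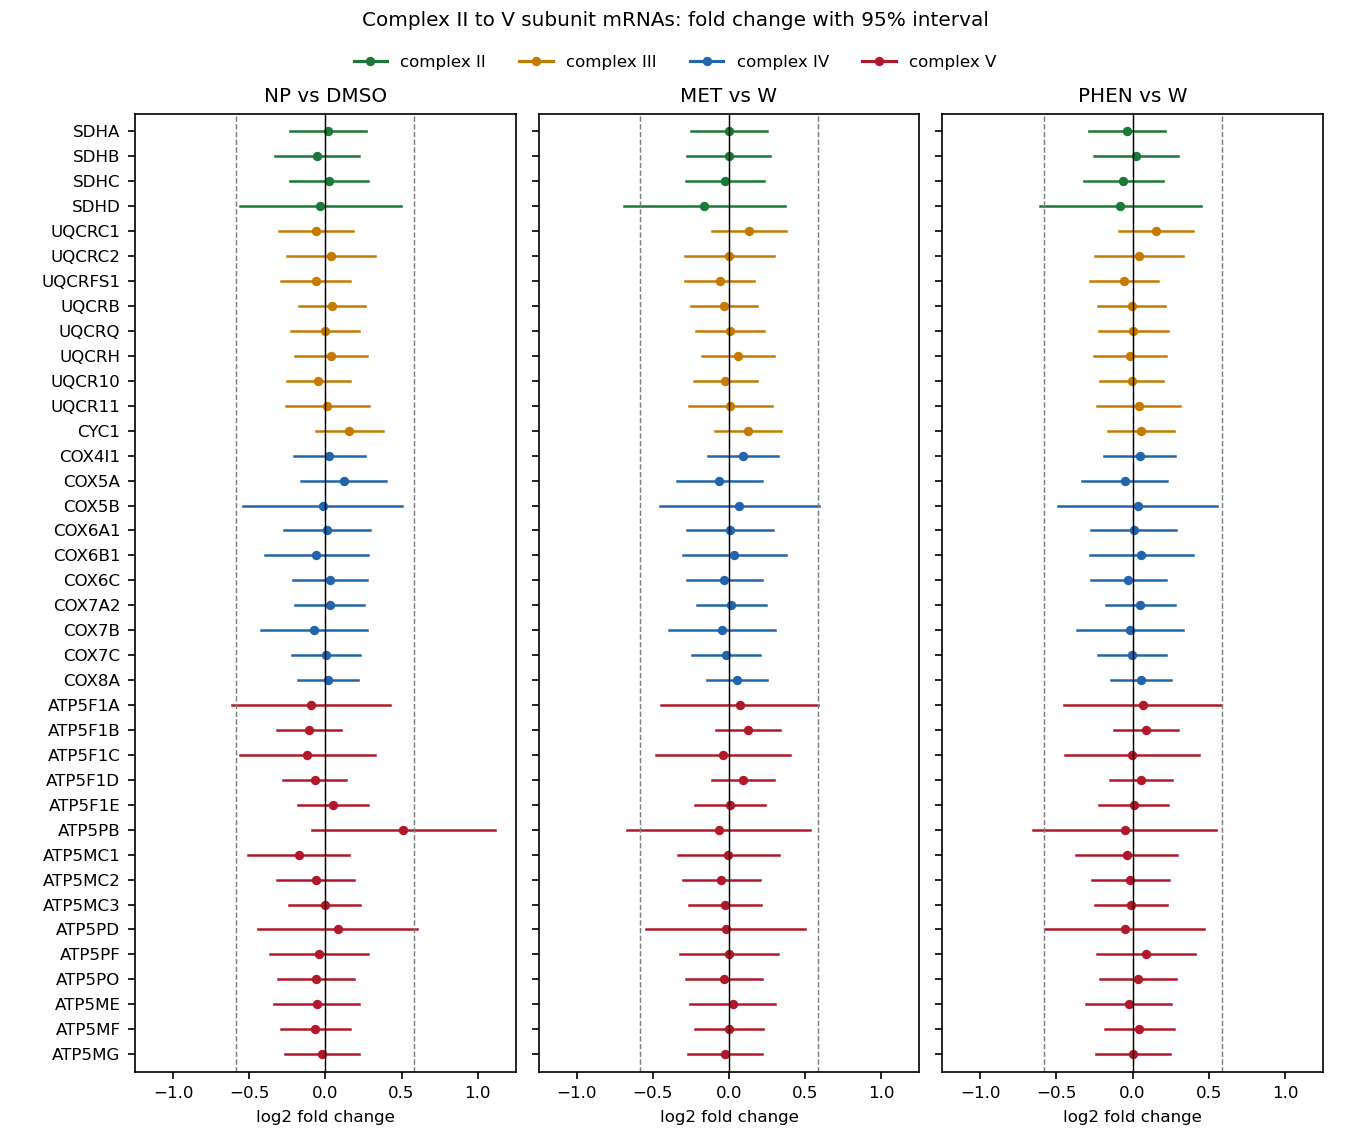
Log2 fold change of each of the 38 members (points) with its 95% interval (lines) in NP vs DMSO, MET vs W and PHEN vs W, coloured by complex. Dashed lines mark 1.5-fold up and down. All intervals cross 0, and 35, 34 and 36 of the 38 stay between the dashed lines.

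The 95% intervals say how large a difference these arrays could have missed. For NP the interval stayed within 1.5-fold in both directions for 35 of 38 members, the exceptions being ATP5F1A, ATP5PB and ATP5PD. For MET it did so for 34, without SDHD, COX5B, ATP5F1A and ATP5PB, and for PHEN for 36, without SDHD and ATP5PB. These intervals come from the fit with replicate number as 1 block over all arrays, although same-numbered arrays deviated together only within a set of slides. With the numbers blocked within each set, the median SE over the members fell from 0.112 to 0.0804, and the interval stayed within 1.5-fold for 37 members in each comparison, with ATP5PB the exception in all 3. Both fits use 1 spread per gene over all arrays, so scatter in DMSO and NP also widens the MET and PHEN intervals. For ATP5PB the low DMSO array enters there, and its SE for MET was 0.27. With only the W and MET arrays fitted it was 0.076. All 9 members of complex III had intervals within 1.5-fold in all 3 comparisons. For CYC1 the interval ran from -0.06 to 0.38 for NP and from -0.09 to 0.34 for MET.

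Set side by side by replicate pair, the 4 complexes followed the replicate pair. For PHEN vs W the median over the members was 0.18 in pair 1, -0.025 in pair 2 and -0.13 in pair 3. Each of the 4 complexes had its highest median in pair 1 and its lowest in pair 3, and the 37 complex I subunits did too, at 0.21, -0.036 and -0.13. Over all features the pair medians were -0.019, -0.026 and -0.012. For MET vs W the members gave 0.090, -0.058 and -0.043, and for NP vs DMSO -0.050, 0.0012 and -0.015. W replicate 1, the control of pair 1, was the array with the most probes above background, and the part of this in the pair difference was not tested.

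**Figure D4:**
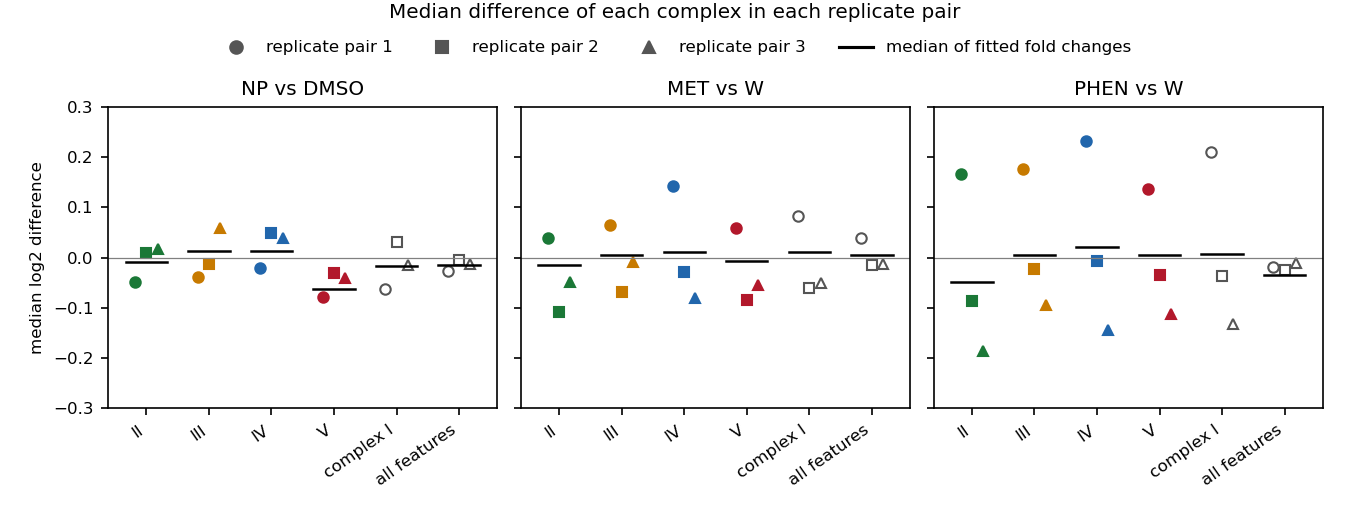
Median log2 difference (y axis) over the members of each complex in replicate pairs 1, 2 and 3 (symbols), with complex I subunits and all features for comparison, in NP vs DMSO, MET vs W and PHEN vs W. Bars are medians of the fitted fold changes. For PHEN vs W every complex is above 0 in pair 1 and below 0 in pairs 2 and 3, while all features stay near 0, and for NP vs DMSO complex V is below 0 in all 3 pairs.

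The sign of the pair differences was counted next. For NP vs DMSO 3 were higher in all 3 pairs (CYC1, COX5A and ATP5PD), where 14.3% of all features were, and 10 (26.3%) were lower in all 3, where 18.9% were. Of those 10, 7 belonged to complex V (ATP5F1B, ATP5F1C, ATP5F1D, ATP5MC1, ATP5PF, ATP5PO and ATP5ME) and the others were SDHB, UQCRFS1 and UQCR10. For MET vs W 5 were higher (UQCRC1, CYC1, COX4I1, ATP5F1B and ATP5F1D), against 22.3% of all features, and 2 lower, against 20.3%. For PHEN vs W 4 were higher (UQCRC1, CYC1, COX6B1 and ATP5F1A), against 12.2%, and 0 lower, against 14.8%.

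Differences between the compounds were tested directly, for 3 pairs of compounds, with p-values adjusted over all features. The doses differed, at 3 µM, 5 mM and 50 µM, so a difference is between these treatments and not between compounds at one dose. None of the 38 members was called, where 0% of all features were called in each of the 3 tests, and none reached an unadjusted p of 0.05, where 2.78% of all features did for NP against MET, 2.43% for NP against PHEN and 2.87% for PHEN against MET. ATP5F1B, lower in all pairs with NP and higher in all pairs with MET, had the largest negative difference of effects, -0.23 (SE 0.13, interval from -0.53 to 0.07, limma adjusted p of 1). With the replicate numbers blocked within each set of slides, the same difference had an SE of 0.09 and a limma adjusted p of 0.495. UQCRC1 had -0.22 for NP against PHEN (interval from -0.56 to 0.13). ATP5PB had 0.58 and 0.56 against MET and PHEN, through the same DMSO array. The biguanides, which share their water control, differed from each other by 0.09 or less in size for all 38 members, with intervals within 1.5-fold for 36 of them.

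Replicates differed more than treatments did for several members. In the DMSO group 11 members of replicate 3 lay more than 0.4 log2 units from the mean of replicates 1 and 2, and in the NP group 8 did, where 44.2% and 46.7% of all features did. COX5B read 5.78, 5.71 and 6.55 with DMSO and 5.78, 5.75 and 6.46 with NP. ATP5PD read 7.16, 7.22 and 8.00 with DMSO and 7.27, 7.34 and 8.02 with NP. In both genes replicate 3 stood apart and treated and control arrays of one number lay together. COX6B1, COX7B, ATP5F1A, ATP5F1C and ATP5PF were likewise higher in replicate 3 of both groups, and SDHD was lower. Replicates 1 and 2 of these groups were on slide 1 and replicate 3 was on slide 2, whose arrays had a 75th percentile of 7.17 and 7.18 log2 units against 7.88 to 7.96 on slide 1, so slide and culture cannot be told apart. With W, MET and PHEN no member differed by more than 0.4 between replicate 3 and the others, where 31%, 34.1% and 15% of all features did.

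The controls also differed. DMSO arrays against W arrays gave 1 called member, where 10.6% of all features were called, and at an unadjusted p of 0.05 it gave 0 higher and 9 lower members, where 10.7% and 23% of all features were. CYC1 was the called one, at -0.75 (SE 0.10, limma adjusted p of 0.00399). Without replicate 1 or replicate 2 its value was -0.72 or -0.83, with a limma adjusted p of 0.107 or 0.112. In both of those fits 0% of all features were called. ATP5F1D (-0.35), COX4I1 (-0.37) and ATP5F1B (-0.32) had adjusted p-values of 0.0296, 0.0389 and 0.0456 but lay under 1.5-fold. For these 4 genes all 6 DMSO and NP arrays lay below all 9 others, a pattern seen in 10.4% of all features. The median over the members was -0.17, beside -0.12 over all features. DMSO and water arrays were on different slides, so solvent and slide cannot be told apart.

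Genes around the complexes gave few differences too. Of 45 assembly factors, 42 were measured, and 1 was lower at an unadjusted p of 0.05 for NP. That was COX10, which makes the heme A precursor for complex IV, at -0.23 (SE 0.10, limma adjusted p of 1). SCO2, a copper chaperone of complex IV, had -0.21 (SE 0.11), and SDHAF2, which helps load flavin onto SDHA, had -0.16 (SE 0.09). With MET the smallest p-values were those of ATPAF2 (0.15), BCS1L (0.10) and COX19 (-0.16), and with PHEN those of COX18 (-0.53), SDHAF4 (0.16) and ATPAF2 (0.09). None passed the test. COX18 was at a level of -4.09 with W, near background, and its PHEN differences were -0.12, -0.08 and -1.39 in the 3 pairs. The median over the assembly factors was -0.020, -0.046 and -0.0088 for NP, MET and PHEN.

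Of 13 further subunits and isoforms, 9 were measured and 0 passed an unadjusted p of 0.05 in any of the 3 comparisons. The smallest p-values for NP were those of ATP5MJ, a small ATP synthase subunit, at -0.20 (SE 0.10), COX7A2L, a factor of respiratory supercomplexes, at 0.25 (SE 0.14), and DMAC2L, a coupling factor of the ATP synthase, at 0.14. COX7A2L was higher and ATP5MJ lower in all 3 pairs. For MET they were COX6B2 (0.26), CYCS, the gene of cytochrome c (-0.19), and DMAC2L (-0.14), and for PHEN CYCS (-0.15), ATP5MJ (-0.08) and COX4I2 (-0.41). COX4I2 was dim, at a level of -2.96 with W. Its PHEN value had an SE of 0.60 and came from -1.41, -0.04 and 0.21 in the 3 pairs. The 37 complex I subunits, the site at which the biguanides act, gave 0 members at an unadjusted p of 0.05 and medians of -0.017, 0.012 and 0.0067. The 74 mitochondrial ribosomal proteins, which translate the mitochondrially encoded subunits, gave medians of -0.048, -0.043 and -0.0047, with 1 lower and 0 higher at an unadjusted p of 0.05 for NP and 0 in either direction for MET and PHEN. Of these 74, 6 were higher and 34 (45.9%) lower with NP in all 3 pairs, beside 14.3% and 18.9% of all features. With MET 9 were higher and 20 lower in all 3 pairs, beside 22.3% and 20.3%, and with PHEN 7 and 3, beside 12.2% and 14.8%.

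The 14 further probes of members read by several probes gave medians of -0.061, -0.011 and 0.0058. For MET, 2 of them had an unadjusted limma p of at most 0.05 where the gene's brightest probe did not. Of all features, each read by its brightest probe, 2.46% reached that p for MET in either direction. A second probe of SDHA had 0.20 (SE 0.09) against 0.0027 for the probe used, and a dim probe of UQCRB for another transcript had -0.41 (SE 0.16) against -0.03. The remaining SDHA probes had 0.13 (SE 0.09) and 0.07 (SE 0.17) for MET, and the mean of all SDHA probes had 0.10 (SE 0.08). For NP the further SDHA probes had -0.08, -0.06 and -0.16, against 0.016 for the probe used. Averaging the probes of a gene instead of taking the brightest left 0 members at that p in all 3 comparisons.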

How the data were processed

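Intensities from the scanner files deposited per array (Agilent Feature Extraction, version 9.1 in the submitters' processing notes, a later version in the file headers; processed signal, background-subtracted by the authors) were taken for 15 arrays of an 8x60K design. Probes were named through the RefSeq accession in the files (31104 of 33080 probes with one matched) and kept where well above background on all 3 arrays of a group. Values are log2 intensity minus the array's 75th percentile, the scaling the authors used for their deposited log2 table, which served as an alternative. The fit was limma 3.58.1 (R 4.3.3, lmFit and eBayes) on group with replicate number as a block over all 15 arrays, two-sided, Benjamini-Hochberg adjusted over 26826 features, with 95% intervals from its standard errors. The fit was tested on simulated data with known shifts. No spot was saturated. Arrays have no depth to count, so their number limits the precision.

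Same-numbered deviations from the group means correlated at 0.31 to 0.65 for DMSO and NP and 0.44 to 0.86 for W and MET. They correlated at 0.24 to 0.40 for W and PHEN, but at -0.19 to -0.02 for DMSO and W. In each group replicates 1 and 2 shared a slide and replicate 3 lay on another, so these correlations cannot tell pairing from slide. The pairing comes from the study's paired test.

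The members and lists were chosen with earlier results of these data known. All members may be named. For each comparison and complex, the members with the largest and smallest difference are given, with SDHA to SDHD, UQCRFS1, COX4I1 and ATP5MC1 to ATP5MC3 in any case, and the 3 smallest p-values of the assembly factor and further subunit lists. Alternatives covered the block, slide, background correction, scaling, filter, probes, arrays fitted, the methods' t-test and each replicate left out.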

Additional observations from a re-analysis of the deposited data

How the results depend on the processing

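Across 15 alternatives per comparison, 0 of the 38 members were called for NP vs DMSO, MET vs W or PHEN vs W, also without replicate 1, 2 or 3, with no replicate block (0) and with the replicate block within each set of slides (0), so the pairing changed no call in these comparisons. With that block 0 members reached an unadjusted p of 0.05, where 11.5%, 9.29% and 7.1% of all features did. At an unadjusted p of 0.05, normexp background correction gave 1 higher member for NP (CYC1), where 1.44% of all features were higher, and the methods' t-test gave 4 lower for NP and 1 lower for MET, where 4.66% and 5.76% were, with 0 after Benjamini-Hochberg adjustment. The median over the members stayed between -0.030 and 0.0048 for NP, -0.055 and 0.030 for MET and -0.093 and 0.065 for PHEN. Signs were compared across settings only for the highest and lowest member of each complex in each comparison. Among these, signs turned for the following members. In the fit used above all of them except ATP5PB were within 0.1 of 0, but several of the ranges reach further. For NP, SDHC was -0.014 with the probes averaged and ran from -0.015 (without replicate 3) to 0.056 when one replicate was left out, and ATP5PB from -0.0016 (without replicate 1) to 0.78. For MET, SDHA was -0.019 with quantile normalization, -0.0025 in the authors' table and ran from -0.077 (without replicate 1) to 0.058, and COX5A from -0.17 to 0.013 (without replicate 3). For PHEN, ATP5PD was 0.0057 with quantile normalization and ran from -0.13 to 0.058 (without replicate 3), SDHB from -0.045 (without replicate 1) to 0.056, SDHD from -0.23 to 0.0064 (without replicate 2), UQCRFS1 from -0.14 to 0.021 and COX5A from -0.20 to 0.12 (both without replicate 3). The cause was not tested.

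Settings for DMSO vs W and for differences between compounds were added after seeing the data. Members called in DMSO vs W were 3 with normexp correction (4.53% of all features) and 0 to 4 when one replicate was left out (0% to 18.9%). Members at an unadjusted p there were 19 with normexp correction (28.1% of all features), 5 with no filter on dim probes (24.7%) and 2 to 16 when one replicate was left out (20.4% to 43.5%). With the replicate block within each set of slides, 1 member (ATP5F1B) reached an unadjusted p of 0.05 for NP against MET, where 9.75% of all features did. Intervals under that block were also added.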
